A study of Mus musculus with 6 samples.

Results

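The vascular basement membrane and its close partners are represented here by 10 genes, which were followed in RNA from sorted endothelial cells of the mouse retina. The members were chosen by symbol: the laminin chains Lama4, Lama5, Lamb1, Lamb2 and Lamc1, the nidogens Nid1 and Nid2, perlecan (Hspg2), Sparc and fibronectin (Fn1). All 10 were found among the 19124 gene symbols of the deposited table, and all 10 passed the filter on low counts that left 16217 genes for testing. Each gene was counted once, by the transcript entry with the longest length.

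The basement membrane is the thin sheet of matrix on which endothelium sits and which it shares with pericytes. Laminins are trimers of an alpha, a beta and a gamma chain, and many of them polymerise at the cell surface. Nidogens link the laminin sheet to the type IV collagen network, and perlecan, a very large proteoglycan with heparan sulfate chains, binds both sheets and holds growth factors. Sparc is a small secreted protein that binds collagen and calcium, and fibronectin forms fibrils that integrins assemble. In retinal vessels the alpha4 laminin chain is known for restraining tip cells and the alpha5 chain for mature and arterial endothelium.

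The 6 libraries came from 6 different C57BL/6 pups at postnatal day 7, when the superficial vessels of the retina are still sprouting. The 3 Ctrl pups carried the genotype Pdgf{beta}CreERT2neg Rnf20p/p and the 3 KO pups Pdgf{beta}CreERT2pos Rnf20p/p, so both groups share the Rnf20p/p alleles and differ in the recombinase, whose activity needs tamoxifen and follows the Pdgfb promoter. All pups received 75 µg of 4-hydroxytamoxifen daily from day 1 to day 4, and CD31+ cells were sorted from digested retinas. Rnf20 is an E3 ubiquitin ligase of histone H2B, and by its title the study concerns Rnf20 levels in VEGF and Notch circuits of growing vessels. The labels do not say what the p alleles are or in what share of cells recombination occurred.

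Facts about the libraries touch each result that follows. Totals ranged from 14581701 to 30692948 counts per library, and the members rested on 158 to 170955 counts per library. Rnf20 was at 47.9 to 57.1 CPM (counts relative to the TMM-adjusted library total) in Ctrl and 31.0 to 39.1 CPM in KO, with a log2 fold change of −0.67 ± 0.235 (SE; edgeR, adjusted p = 0.101). Its partner Rnf40 had a log2 fold change of −0.44 (edgeR, adjusted p = 0.374). The test used throughout is edgeR's quasi-likelihood F-test, adjusted by the Benjamini-Hochberg method over all tested genes, at a threshold of 0.05. All 3 Ctrl libraries held Xist at 108 to 209 CPM with the Y-linked genes Ddx3y, Eif2s3y, Kdm5d and Uty at or near 0, while all 3 KO libraries held those Y-linked genes at 6.49 to 152 CPM and Xist at 0.0343 to 4.42 CPM. Sex and genotype therefore cannot be told apart in this comparison. The summed level of 15 endothelial markers was 3549 to 5465 CPM in Ctrl and 11070 to 15480 CPM in KO, and 11 of the 15 rose. The summed level of 15 photoreceptor markers was 19560 to 34590 CPM in Ctrl and 4825, 9786 and 22530 CPM in KO 1, 2 and 3, above the endothelial sum in each Ctrl library and in KO 3. In bulk RNA of this kind, fewer cells of a type and less RNA per cell cannot be told apart.

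Stretches upstream of 5 members are shown because they include the 4 genes that passed the test and, in Nid1, 1 that did not. RefSeq promoter sequences (GRCm38.p6, the assembly of mm10) were present for 6 of the 10 members, and Lamb1 is not printed because its window overlaps an annotated transcript. Each runs 5′ to 3′ on the strand of the gene, from 250 to 61 bases before the start, and capitals mark the GC box letters GGGCGG or, on the other strand, CCGCCC.
Hspg2 (chr4:137468553-137468742, plus strand): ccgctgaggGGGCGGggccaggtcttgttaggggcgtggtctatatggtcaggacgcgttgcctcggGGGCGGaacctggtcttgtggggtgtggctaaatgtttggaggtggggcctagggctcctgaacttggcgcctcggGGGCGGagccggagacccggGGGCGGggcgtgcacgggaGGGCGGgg
Lama5 (chr2:180225920-180226109, minus strand): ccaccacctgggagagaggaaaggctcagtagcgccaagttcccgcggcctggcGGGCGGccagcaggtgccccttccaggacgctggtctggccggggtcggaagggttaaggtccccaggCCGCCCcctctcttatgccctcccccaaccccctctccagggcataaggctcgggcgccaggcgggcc
Sparc (chr11:55420141-55420330, minus strand): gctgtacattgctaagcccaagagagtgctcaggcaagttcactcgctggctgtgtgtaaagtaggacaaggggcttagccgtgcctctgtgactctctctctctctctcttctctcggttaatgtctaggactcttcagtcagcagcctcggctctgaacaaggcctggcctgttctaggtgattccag
Lamb2 (chr9:108479612-108479801, plus strand): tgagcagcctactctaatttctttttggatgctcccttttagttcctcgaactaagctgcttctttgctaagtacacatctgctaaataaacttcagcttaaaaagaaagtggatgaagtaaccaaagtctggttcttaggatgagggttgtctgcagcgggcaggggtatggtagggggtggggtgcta
Nid1 (chr13:13437352-13437541, plus strand): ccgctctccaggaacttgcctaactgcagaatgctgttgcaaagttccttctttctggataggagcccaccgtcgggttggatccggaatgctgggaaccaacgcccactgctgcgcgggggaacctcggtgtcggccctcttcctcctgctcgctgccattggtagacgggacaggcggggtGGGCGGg

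The GC box letters occurred 5 times upstream of Hspg2, 2 times upstream of Lama5, 1 time upstream of Nid1 and 0 times upstream of Sparc and Lamb2. Of 32851 RefSeq promoter windows of the same 190 bases, 22.8% held them. The Hspg2 and Lama5 windows had a GC content of 70.5% and 71.1%, against a median of 51.6% over all windows, while Lamb2 had 44.7% and Sparc 53.2%. The letters CCAAT, on either strand, were found upstream of Nid1 and not in the other 4 windows (26.7% of all windows hold them). These matches describe the letters only, and no binding was measured. The 4 genes that rose thus included 2 with and 2 without the GC box letters in this window.

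In KO 4 members rose and 0 fell. Perlecan rose 5.43-fold, the alpha5 chain 3.85-fold, Sparc 3.17-fold and the beta2 chain 2.32-fold by the edgeR test over all 16217 genes. The share of all tested genes that rose by this test was 5.85%, and 4.44% fell. All 10 members had a positive log2 fold change, with a median of 1.11 against 0.03 over all tested genes. The 15 endothelial markers had a median of 1.45. Among all called genes 56.8% were higher in KO, a share that was 45.0% without TMM scaling, 44.9% with offsets for GC content and 0.932% with libraries scaled to equal endothelial markers. The last scaling moved the median of all genes to −1.25.

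**Figure D1:**
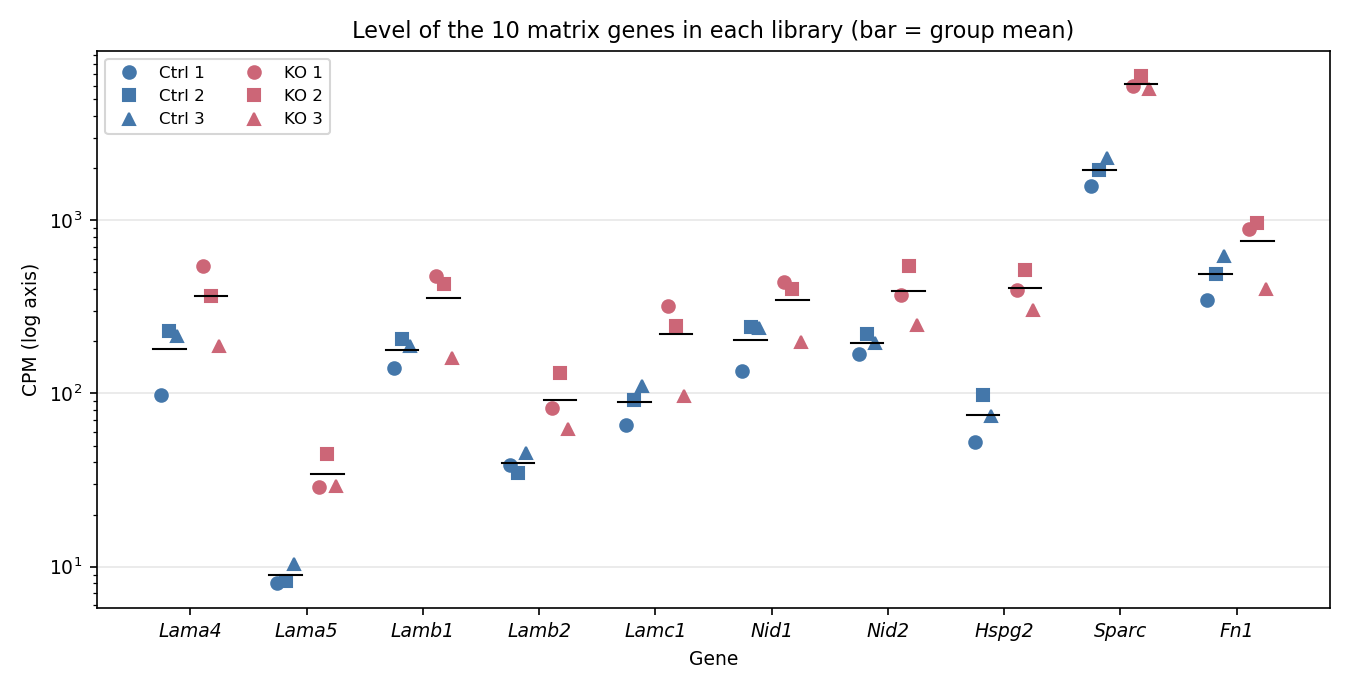
CPM (log axis) of the 10 genes, with 1 point for each library, blue for Ctrl and red for KO, and a bar at each group mean. Every KO point lies above every Ctrl point for Lama5, Lamb2, Nid2, Hspg2 and Sparc, while KO 3 (red triangle) lies among the Ctrl points for Lama4, Lamb1, Lamc1, Nid1 and Fn1.

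The alpha chains give a laminin its receptor binding. Lama4 (NM_010681, chromosome 10, 38965515 to 39110188, GRCm38.p6), the alpha chain found throughout endothelial basement membrane, was at 98.7, 231 and 216 CPM in Ctrl 1, 2 and 3 and at 546.5, 366.3 and 186.8 CPM in KO 1, 2 and 3. The groups overlapped, since KO 3 lay below Ctrl 2 and Ctrl 3. Its log2 fold change of 1.01 ± 0.458 (SE) did not pass the edgeR test (adjusted p = 0.177). Lama5 (NM_001081171, chromosome 2, 180176373 to 180225904) was at 8.10, 8.29 and 10.3 CPM in Ctrl 1, 2 and 3 and at 29.0, 44.6 and 29.1 CPM in KO 1, 2 and 3. Each KO library lay above each Ctrl library, and the rise from 8.90 ± 1.22 to 34.3 ± 8.99 CPM (SD, n = 3) passed the edgeR test (log2 fold change 1.95 ± 0.305 SE, adjusted p = 0.0212).

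Of the beta and gamma chains, which complete the trimer, the less abundant beta2 chain rose and the others did not pass. Lamb1 (NM_008482, chromosome 12, 31265146 to 31329644), the beta chain of most endothelial laminin, was at 141, 206 and 188 CPM in Ctrl 1, 2 and 3 and at 479, 427 and 161 CPM in KO 1, 2 and 3 (log2 fold change 0.99 ± 0.407 SE). Lamc1 (NM_010683, chromosome 1, 153218922 to 153332786), the gamma chain shared by nearly all laminins, was at 65.7, 92.2 and 110 CPM in Ctrl 1, 2 and 3 and at 322.1, 245.5 and 96.77 CPM in KO 1, 2 and 3 (log2 fold change 1.31 ± 0.437 SE). In both genes KO 1 and KO 2 were above every Ctrl library and KO 3 was not, and neither passed the edgeR test (adjusted p = 0.145 and 0.0886). Lamb2 (NM_008483, chromosome 9, 108479847 to 108490530), a beta chain of mature vessels and of synapses, was at 38.5, 34.6 and 45.6 CPM in Ctrl 1, 2 and 3 and at 82.4, 131 and 62.4 CPM in KO 1, 2 and 3. Its groups did not overlap, and its log2 fold change of 1.22 ± 0.316 (SE) passed the edgeR test narrowly (adjusted p = 0.0486). It passed in 7 of 17 alternative fits, whose adjusted p ran from 0.00683 to 0.830. Those passes include the edgeR fits with other transcript entries (adjusted p = 0.0486 and 0.0493), which reused the same Lamb2 counts.

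The nidogens, which bridge laminin and collagen, did not pass the test. Nid1 (NM_010917, chromosome 13, 13437602 to 13512275) was at 135.0, 241.4 and 238.5 CPM in Ctrl 1, 2 and 3 and at 440, 401 and 199 CPM in KO 1, 2 and 3. Nid2 (NM_008695, chromosome 14, 19751257 to 19811787) was at 168.5, 221.9 and 195.7 CPM in Ctrl 1, 2 and 3 and at 372.8, 547.1 and 247.5 CPM in KO 1, 2 and 3. KO 3 again lay inside the Ctrl range for Nid1, whereas for Nid2 it was just above the highest Ctrl library. The log2 fold changes were 0.76 ± 0.372 (SE) for Nid1 and 0.99 ± 0.323 for Nid2 in the edgeR test (adjusted p = 0.207 and 0.0834). By annotation Nid2 overlaps Rtraf, an RNA-binding protein gene, so their reads cannot be told apart in the overlap, and Rtraf was at 31.4 to 41.0 CPM in Ctrl and 32.2 to 98.9 CPM in KO.

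Perlecan had the highest fold change of the 10. Hspg2 (NM_008305, chromosome 4, 137468751 to 137570630) was at 52.5, 98.4 and 74.4 CPM in Ctrl 1, 2 and 3 and at 398.5, 518.8 and 305.1 CPM in KO 1, 2 and 3. The lowest KO library stood well above the highest Ctrl library. The mean went from 75.1 ± 23.0 to 407 ± 107 CPM (SD, n = 3), a log2 fold change of 2.44 ± 0.333 (SE) in the edgeR test (adjusted p = 0.0211). Over the 17 alternative fits its adjusted p ran from 4.99e-09 to 0.126.

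Sparc, which guides collagen assembly, was the most abundant member and the least variable among KO libraries. Sparc (NM_001290817, chromosome 11, 55394159 to 55420080) was at 1569, 1951 and 2304 CPM in Ctrl 1, 2 and 3 and at 5939, 6809 and 5707 CPM in KO 1, 2 and 3, with no overlap. The coefficient of variation over KO libraries was 9.45% for Sparc and 26.2% to 51.7% for the other members. Its log2 fold change was 1.66 ± 0.259 (SE) in the edgeR test (adjusted p = 0.0212). Fn1 (NM_001276408, chromosome 1, 71585473 to 71653280), which tip cells, astrocytes and plasma all supply to the retinal matrix, was at 349, 492 and 625 CPM in Ctrl 1, 2 and 3 and at 895.5, 970.1 and 401.5 CPM in KO 1, 2 and 3. KO 3 lay below Ctrl 2 and Ctrl 3, and the log2 fold change of 0.63 ± 0.384 (SE) was the lowest of the 10 and did not pass the edgeR test (adjusted p = 0.303).

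The members thus fell into 5 whose groups did not overlap (Lama5, Lamb2, Nid2, Hspg2 and Sparc) and 5 whose groups did (Lama4, Lamb1, Lamc1, Nid1 and Fn1), in each case through KO 3. Over all tested genes, 19.0% had every KO library above every Ctrl library and 18.9% every KO library below. Pecam1, which encodes the sorted protein CD31, overlapped too, at 190, 347 and 327 CPM in Ctrl 1, 2 and 3 and at 619, 573 and 344 CPM in KO 1, 2 and 3. Of the 15 endothelial markers 12 did not overlap. KO 3 was also the KO library with the most photoreceptor marker RNA, and the part of this in its laminin levels was not tested. Without KO 3, Lamb1 (log2 fold change 1.39, adjusted p = 0.0452) and Lamc1 (1.71, adjusted p = 0.0427) passed the edgeR test, which made 6 of 10 against 3.02% of all genes higher and 2.22% lower. Without KO 1 Nid2 passed (1.10, adjusted p = 0.0460) and 5 of 10 did, against 15.2% of all genes higher and 14.5% lower. Over the 17 alternative fits the adjusted p ran from 0.0452 to 0.550 for Lamb1, from 0.0210 to 0.965 for Lamc1 and from 0.0282 to 0.506 for Nid2. Leaving out Ctrl 1, Ctrl 2, Ctrl 3 or KO 2 left 0 genes of the whole table past the threshold in edgeR (0.0% in each direction), with 4005, 3434, 3479 and 3576 genes, 4, 6, 6 and 6 of them members, at an unadjusted p below 0.05.

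The authors' deposited table, made with DESeq2 columns, called 6 of the 10 at an adjusted p below 0.05, where 13.6% of its genes were called higher. In the authors' deposited table the log2 fold change was 2.54 for Hspg2 (adjusted p = 2.25e-09), 2.05 for Lama5 (adjusted p = 5.35e-07) and 1.76 for Sparc (adjusted p = 1.34e-07). Lamb2 (1.32, adjusted p = 0.00451), Lamc1 (1.40, adjusted p = 0.0154) and Nid2 (1.09, adjusted p = 0.0206) were also called in the authors' deposited table. Lamb1 (adjusted p = 0.0557), Lama4 (adjusted p = 0.0770), Nid1 (adjusted p = 0.120) and Fn1 (adjusted p = 0.211) were not called in the authors' deposited table. DESeq2 run here on 1 entry per gene called the same 6 members, against 13.2% of genes higher and 10.1% lower, and limma-voom called Lama5, Hspg2 and Sparc, against 6.09% higher and 5.69% lower.

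Levels of the genes were compared per kilobase of transcript, since a longer transcript yields more reads. Sparc led with 918 ± 174 CPM per kilobase in Ctrl (SD, n = 3), followed by Fn1 at 60.8 ± 17.2, Nid2 at 40.1 ± 5.48, Nid1 at 33.7 ± 9.95, Lamb1 at 30.8 ± 5.82 and Lama4 at 30.05 ± 11.96. The neighbours from Nid2 to Lama4 differed by less than their spread. Lamc1 at 11.7 ± 2.94, Lamb2 at 7.03 ± 0.994, Hspg2 at 5.30 ± 1.62 and Lama5 at 0.781 ± 0.107 CPM per kilobase followed in Ctrl. In KO the per-kilobase level of Hspg2 was 28.7 ± 7.56, next to that of Lamc1 at 29.06 ± 15.03, and Lama5 remained the lowest at 3.01 ± 0.790. Whether reads in introns were counted is not given in the sources used here, so the per-kilobase values are approximate.

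Within the laminins, the alpha5 chain was a small share of alpha-chain RNA. Per kilobase, Lama5 made up 4.18%, 1.87% and 2.47% of the sum of Lama4 and Lama5 in Ctrl 1, 2 and 3, against 2.74%, 6.08% and 7.65% in KO 1, 2 and 3. KO 2 and KO 3 were above every Ctrl library and KO 1 was not. The log2 ratio of Lama5 to Lama4 counts, which needs no scaling between libraries, was −4.26 ± 0.605 in Ctrl and −3.32 ± 0.815 in KO (SD, n = 3), and the difference of 0.95 gave p = 0.2 in a two-sided exact permutation test, where 0.1 is the smallest value possible. The per-kilobase ratio of Lamb2 to Lamb1 was 0.281, 0.172 and 0.249 in Ctrl 1, 2 and 3, against 0.177, 0.316 and 0.398 in KO 1, 2 and 3, and the groups overlapped. The count ratio of Hspg2 to Lamc1, chosen after the values were seen and so given with no test, was 0.799, 1.07 and 0.675 in Ctrl 1, 2 and 3, against 1.24, 2.11 and 3.15 in KO 1, 2 and 3.

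**Figure D2:**
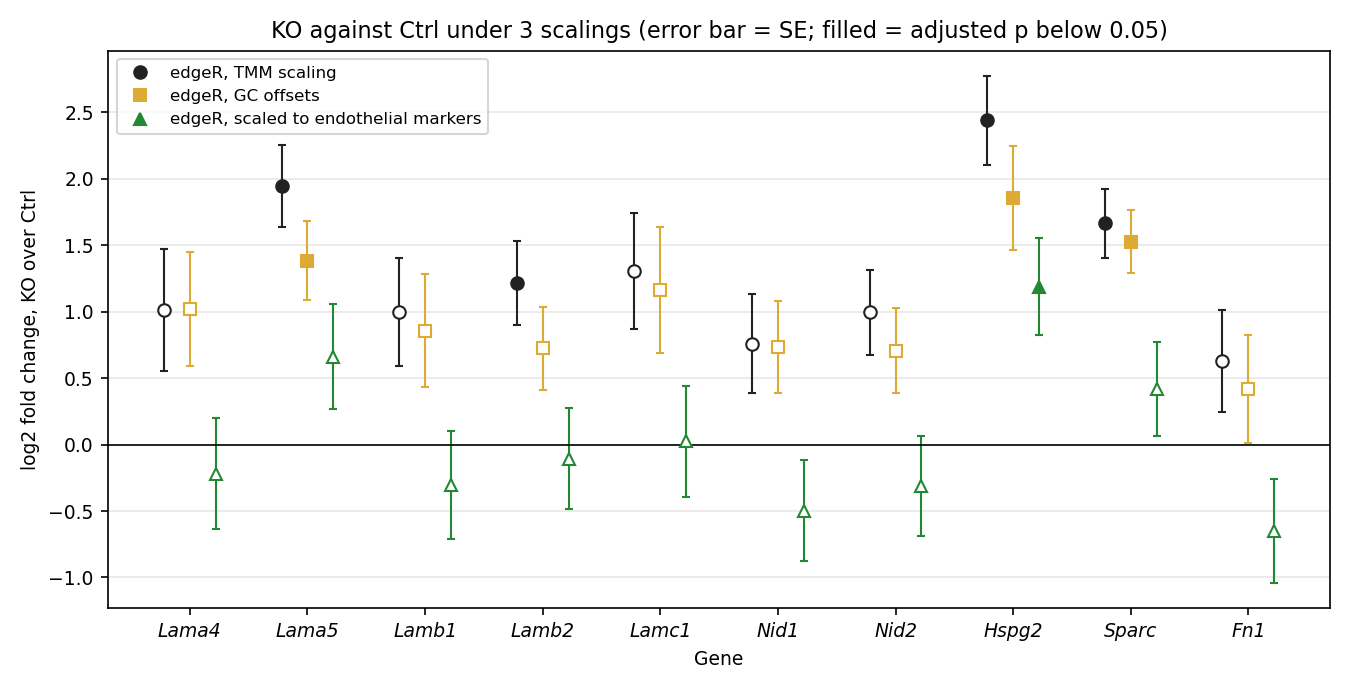
Log2 fold change of KO over Ctrl for each gene in 3 edgeR fits, with bars for 1 SE and filled symbols where the adjusted p is below 0.05. Lama5, Hspg2 and Sparc are filled with TMM scaling and with GC offsets, and Hspg2 is the only filled gene when libraries are scaled to equal endothelial markers.

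Set against the endothelial markers, perlecan was the member that passed the test. In the edgeR test on libraries scaled to equal endothelial markers, Hspg2 had a log2 fold change of 1.19 ± 0.365 (SE, adjusted p = 0.0190), and 1 of 10 members passed where 0.450% of all genes were called higher and 47.9% lower. Lama5 (0.66, adjusted p = 0.179) and Sparc (0.42, adjusted p = 0.337) kept a positive value, Lamc1 was at 0.02, and Lama4, Lamb1, Lamb2, Nid1, Nid2 and Fn1 had negative values from −0.11 to −0.65 that did not pass the same test (adjusted p from 0.181 to 0.830).

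The same comparison by library used the log2 CPM of a gene minus the mean log2 CPM of the 15 markers. Hspg2 was at −1.49, −1.16 and −1.60 in Ctrl 1, 2 and 3 and at −0.28, −0.03 and −0.35 in KO 1, 2 and 3. Sparc was at 3.41, 3.15 and 3.36 in Ctrl 1, 2 and 3 and at 3.62, 3.68 and 3.87 in KO 1, 2 and 3. For Hspg2, Lama5 and Sparc every KO library lay above every Ctrl library on this scale, as for 1.92% of all tested genes. Fn1 was at 1.25, 1.16 and 1.48 in Ctrl 1, 2 and 3 and at 0.89, 0.87 and 0.04 in KO 1, 2 and 3, and for Fn1 and Nid1 every KO library lay below every Ctrl library, as for 59.6% of all tested genes. Each of these 5 genes gave p = 0.1 in a two-sided exact permutation test, the smallest that 3 against 3 allows, and the other 5 gave p from 0.3 to 0.9.

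**Figure D3:**
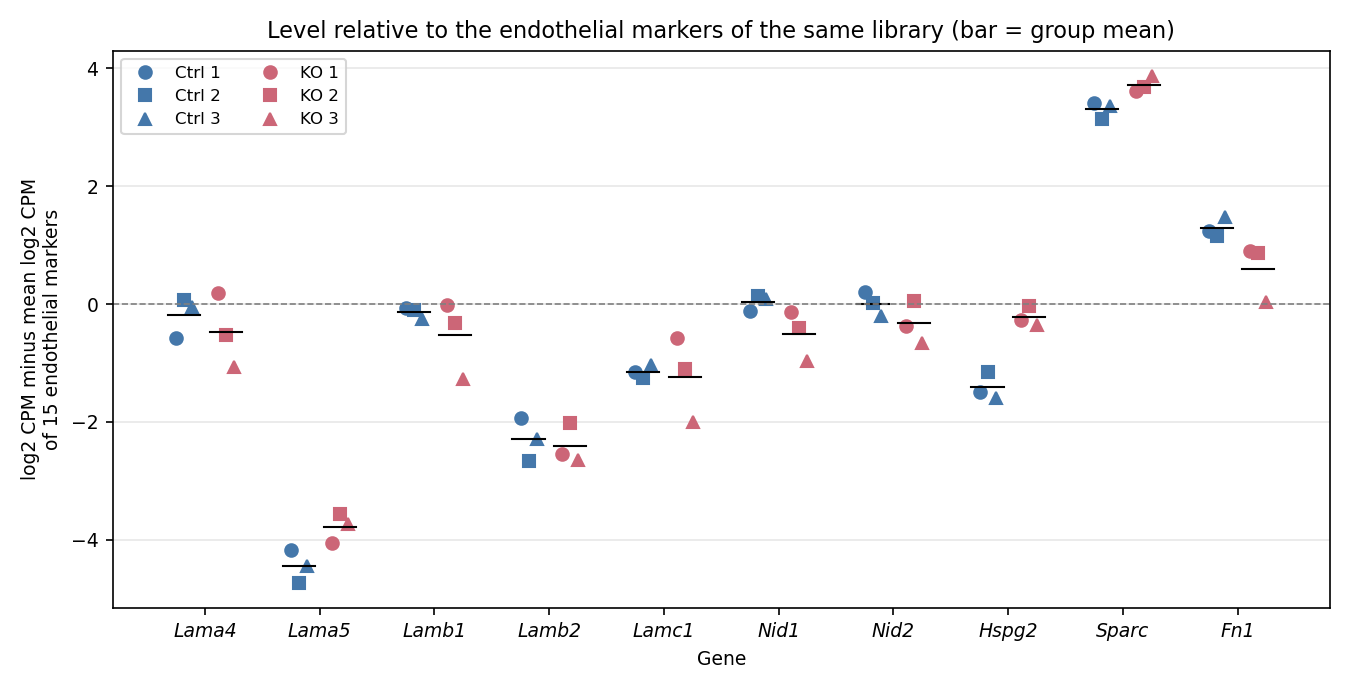
Log2 CPM of each gene minus the mean log2 CPM of the 15 endothelial markers in the same library, with 1 point for each library and a bar at each group mean. The KO points of Hspg2 (−0.35 to −0.03) lie above its Ctrl points (−1.60 to −1.16), and those of Fn1 (0.04 to 0.89) lie below its Ctrl points (1.16 to 1.48).

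The GC content of a transcript moved with the fold change, both over the members and over the whole table. Hspg2, Lama5 and Lamb2, 3 of the 4 members that rose, had the highest transcript GC contents of the 10, at 60.9%, 59.9% and 58.8%, while Sparc had 51.7% and the other 6 had 50.0% to 54.6%. Pearson's r between GC content and log2 fold change was 0.70 over the 10 members and 0.37 over 16093 tested genes. Genes are not independent replicates and all share these 6 libraries, so no p is given. Among the 4023 genes with the highest GC content, of 4 equal groups, the median log2 fold change was 0.50 and 12.7% rose, and in the group with the lowest GC content it was −0.44 and 1.09% rose. With offsets for GC content in each library, Hspg2 (log2 fold change 1.86, adjusted p = 0.0264), Sparc (1.53, adjusted p = 0.0165) and Lama5 (1.38, adjusted p = 0.0277) passed the edgeR test, against 5.78% of all genes called higher and 7.09% lower. Lamb2 did not (0.72, adjusted p = 0.149). Over the 17 alternative fits the adjusted p ran from 1.01e-06 to 0.179 for Lama5 and from 2.64e-07 to 0.337 for Sparc. With the replicate number as a block, 0 members and 0.00617% of all genes passed.

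**Figure D4:**
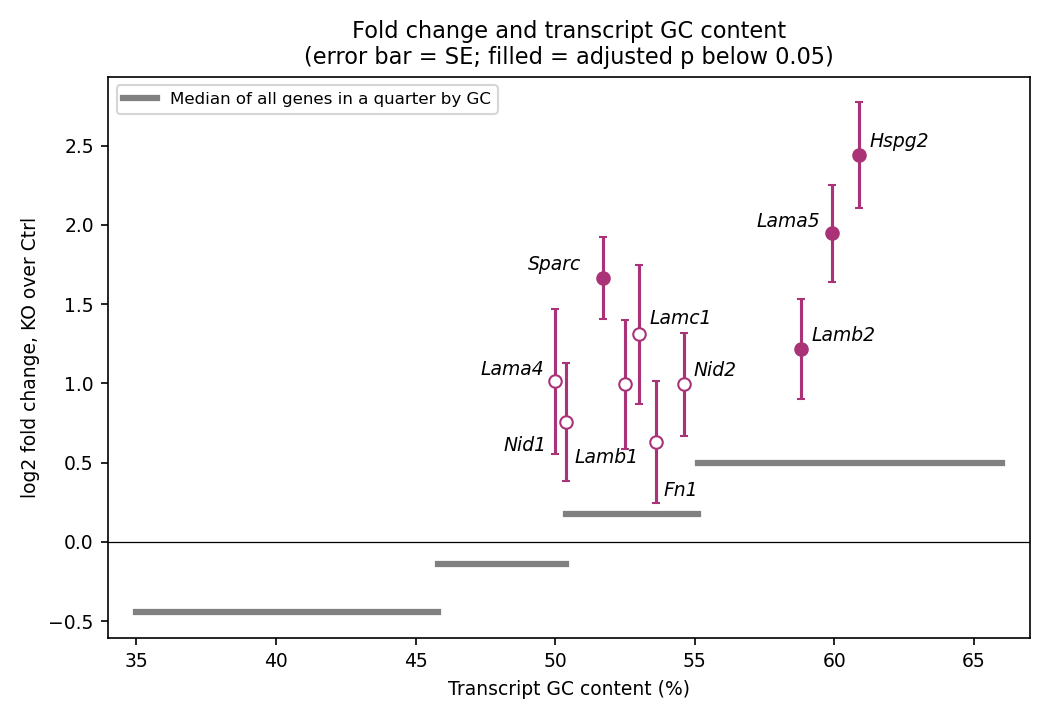
Log2 fold change of KO over Ctrl (TMM scaling, bar = SE) against transcript GC content for the 10 genes, filled where the adjusted p is below 0.05, with grey lines at the median of all tested genes in each of 4 equal groups by GC content. The outer 2 grey lines are clipped to the plotted range, and Lamb2, Lama5 and Hspg2 stand to the right of the other members.

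Other parts of the basement membrane were read from lists chosen with earlier results of these data known. Of 8 collagen genes of this matrix 4 rose and 0 fell, against 5.85% and 4.44% of all tested genes. Their median log2 fold change was 0.89. Col4a1 and Col4a2, which form the main type IV collagen trimer, went from 617 ± 198 to 2071 ± 645 CPM and from 318 ± 102 to 1095 ± 264 CPM (SD, n = 3). Col15a1 (log2 fold change 1.93) and Col18a1 (1.51), whose products carry glycosaminoglycan chains, rose too. Col4a3 (0.26), Col4a4 (0.10), Col4a5 (0.08) and Col4a6 (−0.82), the chains of specialised type IV collagens, did not pass the edgeR test (adjusted p from 0.523 to 0.963). With GC offsets 0 of the 8 passed, against 5.78% of all genes called higher and 7.09% lower. With libraries scaled to equal endothelial markers 0 of the 8 passed, against 0.450% of all genes higher and 47.9% lower.

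Of 16 other basement membrane components 5 rose and 1 fell, against 5.85% and 4.44% of all tested genes. Tinagl1 (1.80), a laminin-binding matricellular protein, Fbln1 (1.71), a fibulin that binds fibronectin and laminin, Emilin1 (1.47), an elastic fibre glycoprotein, and Mmrn2 (1.12), an endothelial matrix protein also used here as an endothelial marker, rose. The fifth was Dcn, the proteoglycan decorin, with 0, 0 and 2 counts in Ctrl 1, 2 and 3 and 39, 23 and 25 counts in KO 1, 2 and 3, and it is also 1 of the fibroblast markers. Egflam, which encodes pikachurin, a matrix protein of photoreceptor synapses, fell from 335 ± 48.5 to 128 ± 47.1 CPM (SD, n = 3), beside photoreceptor markers of which 3 of 15 fell, and their part in it was not tested. Agrin, Agrn, a heparan sulfate proteoglycan related to perlecan, had a log2 fold change of 1.06 and missed the threshold of the edgeR test (adjusted p = 0.0501).

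Among receptors, of 17 receptors and coreceptors of laminin and fibronectin 1 rose and 0 fell, a share close to the 5.85% of all tested genes that rose, with a median log2 fold change of 0.79. Bcam, a receptor for the alpha5 laminin chain, was at 25.8, 25.6 and 29.5 CPM in Ctrl 1, 2 and 3 and at 111, 145 and 140 CPM in KO 1, 2 and 3 (log2 fold change 2.29 ± 0.237 SE, adjusted p = 0.0206 in the edgeR test). The groups did not overlap. Of 17 tested enzymes and chaperones of matrix assembly 2 rose and 0 fell, against 5.85% and 4.44% of all tested genes. Their median log2 fold change was 0.65. Those that rose were Serpinh1, the collagen chaperone (1.84), and Loxl1, a lysyl oxidase that crosslinks elastin and collagen (2.14). Lox was counted too low to be tested. Counts over these lists rest on edgeR's test with all libraries, and at an unadjusted p below 0.05 the numbers lower in KO were 1 receptor and 0 collagens and enzymes. DESeq2 called 3 receptors and 6 enzymes higher and 1 receptor lower, against 13.2% of all genes higher and 10.1% lower. The limma-voom fit called 1 receptor and 2 enzymes higher and 0 genes of those 3 lists lower. Its shares of all genes were 6.09% higher and 5.69% lower. With GC offsets 3 receptors and 2 enzymes were higher and 1 enzyme lower, against 5.78% of all genes higher and 7.09% lower. With libraries scaled to equal endothelial markers 1 receptor and 0 enzymes were higher, and 3 receptors and 5 enzymes lower. That scaling called 0.450% of all genes higher and 47.9% lower.

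Markers of other cells also differed between libraries. Beside the counts that follow, 5.85% of all tested genes rose and 4.44% fell. Every KO library lay above every Ctrl library for 19.0% of them. The summed level of 12 mural cell markers was 192 to 895 CPM in Ctrl and 422 to 843 CPM in KO, with 1 of 12 risen. Rgs5, with a log2 fold change of 0.16, was the largest part of that sum in each library. Of the 12 mural markers, 11 had a positive log2 fold change, and the median was 1.14. For 5 of the 12 every KO library lay above every Ctrl library. The 12 markers of astrocytes and Müller glia summed to 2425 to 3022 CPM in Ctrl. Their sums were 3075, 17460 and 5967 CPM in KO 1, 2 and 3, and 4 rose. Most of the sum in KO 2 and KO 3 was Apoe. Apoe was at 609 to 1704 CPM in Ctrl and 445.5, 14880 and 3770 CPM in KO 1, 2 and 3. The 14 microglial markers summed to 282 to 1840 CPM in Ctrl and 257, 14330 and 2773 CPM in KO 1, 2 and 3. Apoe was thus highest in the library with the most microglial marker RNA. Fibroblast markers summed to 76.6 to 194 CPM in Ctrl and 147 to 279 CPM in KO, most of it Pdgfra, which retinal astrocytes also express. All 6 tested fibroblast markers had a positive log2 fold change, and 1 rose, Dcn (4.88, adjusted p = 0.0436 in the edgeR test). The collagens Col1a1 and Col1a2 were at 0.823 to 9.04 CPM in all libraries. For these collagens, Col3a1, Pdgfra and Foxc1 the groups overlapped. Foxc1 was highest in KO 1, at 29.1 CPM against 0.444 to 2.93 CPM in Ctrl. Erythroid markers summed to 63.6 to 101 CPM in Ctrl and 471 to 701 CPM in KO, and 6 of 7 rose, with every KO library above every Ctrl library for all 7. Those 6 are globin symbols in 3 pairs with equal or nearly equal counts, so they are not 6 separate measurements. With libraries scaled to equal endothelial markers the same number, 6, was higher, against 0.450% of all genes higher and 47.9% lower. Of 4 tested platelet markers 2 rose, and all 4 had every KO library above every Ctrl library, with sums of 12.71 to 14.01 CPM in Ctrl and 25.64 to 42.97 CPM in KO. Of 14 tested markers of inner retinal neurons 4 fell, with sums of 2919 to 3325 CPM in Ctrl and 949 to 1760 CPM in KO. The part of these cells in the levels of the members was not tested. The endothelial sum was higher in KO beside the members, and the fit scaled to those markers is given above.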

How the data were processed

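Polyadenylated RNA of 6 libraries was amplified as full-length cDNA and sequenced as single reads of 50 bases, per the labels' protocols; this preparation does not mark strand. Build mm10 and the tools STAR, Trimmomatic 0.36, deepTools, edgeR and DESeq2 are listed without role or order, per the submitters' processing notes; what counted the reads is not given in the sources used here. Values deposited are raw counts per RefSeq transcript entry, normalized counts (a signal: counts divided by 1 factor per library) and RPKM values that use a length from transcript start to end. Also deposited are the authors' log2 fold change, Wald statistic (a score), p-value and adjusted p-value. The RPKM values were not used. The Ctrl count column with an unlike name was taken as Ctrl 3, since it equals the deposited normalized column of that name times 1 constant.

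Per symbol the longest entry was kept, ties by highest count sum. edgeR 4.0.16 (R 4.3.3) fitted quasi-likelihood models to the counts with TMM, filterByExpr, no covariate and Benjamini-Hochberg adjustment over 16217 genes, at a two-sided threshold of 0.05. The SE is the log2 fold change divided by the square root of F. Alternatives used DESeq2 1.42.0, limma 3.58.1 (voom), other scalings, filters and entries, GC offsets (loess, span 0.5), a replicate block, and each library left out. The edgeR fit was tested on simulated data. Transcript GC and length came from GENCODE M21, and coordinates and promoters from RefSeq on GRCm38.p6. Replicates are separate pups, so p-values measure the spread between libraries of different pups, which includes differences in their cell content. All 10 members, Rnf20 and Rnf40, type IV collagen chains and unmeasured list genes were named by rule. So were the at most 4 called genes with the smallest p of each list. Mmrn2, Dcn, Agrn, Pecam1, Sparcl1, Spp1, Ccn1, Rtraf, sex-linked genes, Pdgfra, Apoe, Col1a1, Col1a2, Col3a1 and Foxc1 were named after their values were seen. The members and lists were chosen with earlier results of these data known. Libraries were not paired by number in the main fit, since same-numbered libraries came from different pups. The sample titles do not say whether equal numbers mark a shared litter or preparation. The edgeR fit with the number as a block called 1 gene in all and 0 members. The list of further laminin chains is not reported here.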

Additional observations from a re-analysis of the deposited data

How the results depend on the processing

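The number of genes called between KO and Ctrl was 1668 in edgeR with all libraries, 3565 with DESeq2 and 7834 (73 higher, 7761 lower) with libraries scaled to equal endothelial markers; it ranged from 0 to 4927 when 1 library was left out. Of the 10 members, 4 were higher, against 5.85% of all tested genes. With libraries scaled to endothelial markers 1 member was higher, against 0.450% of all genes. With 1 library left out 0 to 6 members were higher, while the share of all genes higher ran from 0.0% to 15.2%. The 6 came without KO 3, where that share was 3.02%. With the replicate block edgeR called 1 gene in all and 0 members, with 3407 genes and 5 members at an unadjusted p below 0.05. Same-numbered libraries had deviations from their group means correlated at −0.39, 0.07 and −0.26, and no library correlated best with its own number. The 3 deviations of a group sum to 0 for each gene, so these correlations cannot decide whether equal numbers mark a shared litter or preparation. Scaled to endothelial markers, the log2 fold changes of Lama4, Lamb1, Lamb2, Nid1, Nid2 and Fn1 were −0.22, −0.31, −0.11, −0.50, −0.31 and −0.65; this scaling sets the markers' mean equal by construction. The other members kept a positive sign in all 17 alternatives, though Lamc1 was at only 0.024 ± 0.416 (SE) with this scaling. In the comparison by library, the difference of Lamc1 from the markers was −0.086 (KO minus Ctrl). Hspg2 passed 12 of the 17 alternatives, Lama5 and Sparc 11 and Lamb2 7. The fits with other transcript entries, which these numbers include, reused the same counts for each member. Fits without 1 library have fewer libraries to measure spread. The median difference of the members from the endothelial markers, −0.19 on the log2 scale, ran from −0.36 without KO 1 to 0.015 without KO 3, where it crossed 0. The log2 difference of the Lama5 to Lama4 ratio stayed positive, from 0.63 to 1.41, with 1 library left out. Depth limits Lama5 most among the members, at 158 to 237 counts in Ctrl.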

Other observations

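The genes of a list of other matricellular proteins did not pass the test. Of 9 measured genes 0 passed the edgeR test in either direction, against 5.85% of all tested genes higher and 4.44% lower. With 9 genes, a count of 0 lies close to those shares. DESeq2 (13.2% of all genes higher, 10.1% lower) and limma-voom (6.09% and 5.69%) also called 0 of the 9. In edgeR 1 of them, Spp1, had an unadjusted p below 0.05, as had 4953 of the 16217 tested genes. Of the 9, 8 had a positive log2 fold change, with a median of 0.62. Sparcl1, the closest relative of Sparc, was at 487, 531 and 667 CPM in Ctrl 1, 2 and 3 and at 1194, 829 and 571 CPM in KO 1, 2 and 3 (log2 fold change 0.62). Its KO 3 library lay inside the Ctrl range, unlike that of Sparc. Spp1, osteopontin, which microglia also make, was at 12.4 to 45.1 CPM in Ctrl and at 20.5, 726 and 41.7 CPM in KO 1, 2 and 3, with its highest value in the library with the most microglial marker RNA. The growth factor-induced Ccn1 was at 1128 to 1526 CPM in Ctrl and 1032 to 1844 CPM in KO. Cyr61 and Ctgf, older names of Ccn1 and Ccn2, match no row.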
